A study of Mus musculus with 4 samples.

Results

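The transcripts described here encode the motors that move cargo along microtubules, and their closest subunits. They were chosen by gene symbol alone, as every symbol that begins with Kif and a digit, Klc and a digit, Dync and a digit, Dynll, Dynlr, Dynlt, or Dctn and a digit. This gave 69 of the 52550 genes in the count table. The rule itself used no measured value, but it was set with earlier results of these data known. RNA bound by YTHDF2, a cytoplasmic reader of N6-methyladenosine (m6A) in mRNA, was recovered with an anti-YTHDF2 antibody by RNA immunoprecipitation (RIP) and sequenced beside the input RNA. All 4 libraries came from wild type C57BL/6 mouse retina at postnatal day 0, dissociated with papain, so that both groups share strain, genotype, tissue and age and carry no transgene or treatment. The input group and the RIP group each held 2 replicates, and each replicate gave 1 input and 1 RIP library. A control immunoprecipitation with IgG was not analysed here.

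Kinesins walk along microtubules, most of them towards the plus end, which in axons points away from the cell body. Cytoplasmic dynein is a large complex that walks the other way, and dynactin is the multi-subunit partner that couples dynein to cargo and keeps it on the track. In the newborn retina these motors carry vesicles, mitochondria and mRNA in growing axons and dendrites. They also build spindles and move nuclei in dividing progenitors and carry proteins along cilia.

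The small dynein light chains are shown first by sequence, because pairs of closely related genes in this group had different values. Dynll1 and Dynll2 encode the LC8 light chain, a dimer that dynein shares with many other complexes. Their coding sequences, read from GENCODE M21 transcripts on GRCm38, are both 270 nt long and differ at 51 positions, being 81.11% identical. Capitals mark the bases that differ between the 2 genes. Dynll1 lies on the minus strand at chr5:115298696-115300644 and Dynll2 on the minus strand at chr11:87981433-87984003, introns included.
Dynll1: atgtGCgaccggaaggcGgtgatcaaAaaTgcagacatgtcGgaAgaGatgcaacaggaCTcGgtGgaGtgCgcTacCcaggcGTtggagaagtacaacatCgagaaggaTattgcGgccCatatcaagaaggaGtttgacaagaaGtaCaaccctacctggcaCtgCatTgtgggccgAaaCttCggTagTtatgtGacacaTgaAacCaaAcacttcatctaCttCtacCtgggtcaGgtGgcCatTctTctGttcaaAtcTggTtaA
Dynll2: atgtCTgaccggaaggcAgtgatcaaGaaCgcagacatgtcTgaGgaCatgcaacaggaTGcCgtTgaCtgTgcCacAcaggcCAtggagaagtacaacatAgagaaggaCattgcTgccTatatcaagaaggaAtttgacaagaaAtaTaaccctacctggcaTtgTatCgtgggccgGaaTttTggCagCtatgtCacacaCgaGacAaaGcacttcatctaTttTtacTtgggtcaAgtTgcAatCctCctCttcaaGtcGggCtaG

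Dynlrb1 and Dynlrb2 encode the roadblock light chain, which sits on the dynein intermediate chains. Their coding sequences of 291 nt differ at 82 positions and are 71.82% identical, with capitals again on the differing bases. Dynlrb1 lies on the plus strand at chr2:155236615-155249964 and Dynlrb2 on the plus strand at chr8:116505047-116515723.
Dynlrb1: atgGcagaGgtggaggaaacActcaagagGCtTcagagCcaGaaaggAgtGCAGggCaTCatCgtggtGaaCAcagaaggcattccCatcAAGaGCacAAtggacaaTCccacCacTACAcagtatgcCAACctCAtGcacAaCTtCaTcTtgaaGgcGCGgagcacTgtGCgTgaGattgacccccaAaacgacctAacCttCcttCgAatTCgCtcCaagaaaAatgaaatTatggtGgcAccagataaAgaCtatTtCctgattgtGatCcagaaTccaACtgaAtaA
Dynlrb2: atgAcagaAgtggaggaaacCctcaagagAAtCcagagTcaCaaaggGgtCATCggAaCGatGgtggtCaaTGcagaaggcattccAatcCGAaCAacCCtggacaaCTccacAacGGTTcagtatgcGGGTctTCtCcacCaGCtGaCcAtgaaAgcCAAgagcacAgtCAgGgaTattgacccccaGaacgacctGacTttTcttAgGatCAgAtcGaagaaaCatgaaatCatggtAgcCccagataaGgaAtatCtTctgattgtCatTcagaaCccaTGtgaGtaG

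The Tctex1 light chain, in contrast, is encoded by near-identical copies. The coding sequences of Dynlt1a, Dynlt1c and Dynlt1f are identical over 342 nt, and that of Dynlt1b differs from them at 1 position. Counts of single Dynlt1 copies and of the processed pseudogene Dynlt1-ps1 are therefore uncertain, since reads may be split among copies or dropped, and the copies are best read as a group.

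The core of the m6A consensus, written as the DNA letters GGACT, was searched on the sense strand only of the longest coding transcript of each gene. At least 1 copy was found in 52 of 57 tested protein-coding members (91.23%) and in 93.08% of all tested protein-coding genes. All 9 members enriched in RIP held it, as did 10 of the 13 depleted members with a coding transcript. The median density was 1.17 per kb in the enriched and 1.16 per kb in the depleted members, against 1.04 per kb in all tested protein-coding genes. Density thus did not separate the members by direction. Copies per transcript, not scaled for length, ran from 1 (Kif1bp) to 15 in the enriched members. In the depleted members they ran from 0 to 5 (Kif20b). The copies nearest to the stop codon are shown for the 2 enriched members that passed the adjusted test and for the Dynlt1 copies, with GGACT in capitals. m6A itself was not measured in these libraries, and a match is not a modified site. The Kif3c copy lies in the coding sequence at chr12:3390494-3390518, plus strand. The Dync1h1 copy lies in the coding sequence at chr12:110666606-110666630, plus strand. The Dynlt1a copy lies just before the stop codon at chr17:6310873-6310897, minus strand, and the same 25 bases stand at the same place in Dynlt1b, Dynlt1c and Dynlt1f.
Kif3c: gccttttcctGGACTgtgaggagga
Dync1h1: tcttcaccgtGGACTttgaaattgc
Dynlt1a: cagtaccttcGGACTgtccatctga

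The count table held between 19530226 and 39499994 counts per library, of which 8.37% to 11.5% fell on protein-coding genes. The members took 14398 to 20428 counts per library. After the filter on low counts, 58 members and 13632 genes in all were tested with edgeR's quasi-likelihood test. The input libraries differed from each other more than the RIP libraries did: over the 58 members, the SD of the log2 difference between replicates was 0.923 for the inputs and 0.319 for RIP. Levels in single libraries are given below as counts or as CPM (each count divided by the effective library size after TMM), differences as log2 fold changes of RIP over input with their standard error (SE), and levels of different genes as FPKM, which is scaled for gene length. With 2 libraries against 2, an exact two-sided permutation test of a single gene cannot go below p = 0.333, so that the tests rest on the spread estimated across all genes.

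The motor transcripts split by subunit. Of the cargo-carrying kinesins and their light chains 5 of 16 were enriched in RIP, as was the heavy chain of dynein-1. By contrast, 8 of 10 dynein light chains and 4 of 6 dynactin transcripts were depleted. Most of these 8 light chain transcripts were Dynlt1 copies or their pseudogene, whose reads may be shared. Of the 12 kinesins of cell division, 11 were not called. Median lengths were 6349.5 nt for the cargo group, 1409 nt for dynein light chains and 1658 nt for dynactin. With length and GC trends taken out, as below, 0 of the cargo group were enriched, and 3 dynein light chains and 0 dynactin transcripts depleted. With FPKM-implied lengths these numbers were 1, 2 and 1. Of all tested genes, 8.77% and 10.2% were enriched and 9.15% and 10.6% depleted in these fits. Subunit and length were not tested apart. Members with an unadjusted p below 0.05 were called enriched where the log2 fold change reached 1 and depleted where it reached -1. By this rule 9 of the 58 tested members (15.5%) were enriched, where 9.43% of all tested genes were, and 14 (24.1%) were depleted, where 17.2% of all tested genes were. With Benjamini-Hochberg adjustment over all tested genes in edgeR, 2 members stayed enriched and 9 depleted at an adjusted p below 0.05, against 3.48% and 9.78% of all tested genes. The number of members above 0 and below 0 was 29 each, and their median log2 fold change was 0.0045, near the -0.05 of all tested genes. The medians of the role groups ran from 0.92 for other kinesins and 0.67 for cargo kinesins and kinesin light chains, through -0.08 for cell division kinesins, to -1.27 for dynactin and -2.21 for dynein light chains. Without RIP replicate 1 or without RIP replicate 2 the enriched members numbered 3 and 4 and the depleted members 9 in each case. At an adjusted p below 0.05, 0 members were enriched and 1, Dynlrb1, was depleted in each of these edgeR fits. Without input replicate 2 the enriched members numbered 15.

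**Figure D1:**
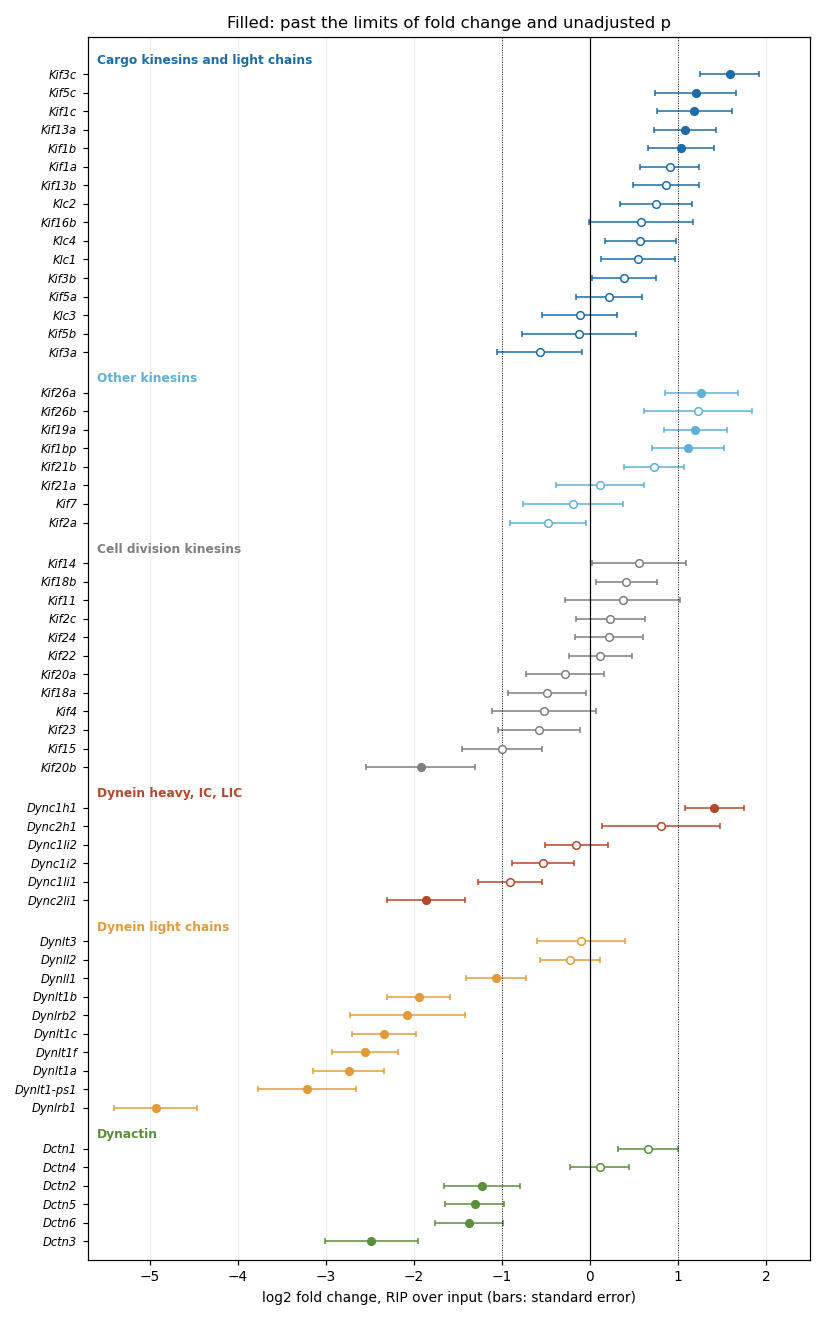
log2 fold change of RIP over input (x axis) for each of the 58 tested motor transcripts (rows, grouped by role), with bars for 1 standard error. Filled points are past the limits of fold change and unadjusted p (9 enriched, 14 depleted), dotted lines stand at -1 and 1, and the dynein light chains and 4 of 6 dynactin transcripts lie on the left.

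Among the 16 tested cargo kinesins and kinesin light chains, 5 were enriched (31.2%, beside 9.43% of all tested genes) and 13 lay above 0. The number depleted was 0 in edgeR and in DESeq2, and none of those below 0 had an unadjusted p below 0.05 in either tool. Kif3c, the neuronal motor subunit of heterodimeric kinesin-2, had the largest log2 fold change of the 58 members. It is annotated on chromosome 12 from 3365132 to 3406494 and held 418 and 432 counts in the inputs against 1045 and 820 in RIP. Both RIP libraries lay above both inputs, and Kif3c rose 3-fold with a log2 fold change of 1.59 (SE 0.337, edgeR adjusted p = 0.0189). It remained past the limits when each library was left out, with values from 1.54 to 1.81. An antisense gene, 1110002L01Rik, overlaps 35.34% of its exon bases but held 119 counts over all libraries against 2715 for Kif3c. The other subunits that can pair in kinesin-2 had lower values. Kif3a held 222 and 617 counts in input against 235 and 175 in RIP (log2 fold change -0.57, SE 0.481), with overlapping groups. It was depleted at -1.12 without input replicate 1 and stood at 0.31 without input replicate 2. Kif3b stood at 0.39 (SE 0.363).

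Kinesin-1, the main axonal cargo motor, has 3 heavy chain genes, and their values differed. Kif5c held 273 and 688 counts in input against 931 and 674 in RIP, or 8.19 and 20.1 against 36.9 and 28 CPM. After scaling both RIP libraries lay above both inputs, and the log2 fold change was 1.20 (SE 0.46, unadjusted p = 0.0294, edgeR adjusted p = 0.122). Without input replicate 1 Kif5c stood at 0.69, and of the fits that leave out 1 library it was past the limits only in the one without input replicate 2, at 1.98. Kif5a, the neuronal form linked to hereditary spastic paraplegia, held 314 and 232 counts in input against 193 and 268 in RIP (0.22, SE 0.375). Kif5b, the ubiquitous form, held 50 and 257 in the inputs and 109 and 95 in RIP (-0.12, SE 0.646). In both the groups overlapped, and the value of Kif5b ran from -0.86 without input replicate 1 to 1.45 without input replicate 2. The difference between the 3 genes was not tested. Of the kinesin light chains, which link kinesin-1 to cargo, Klc1 held 1005 and 469 input and 813 and 759 RIP counts (0.54, SE 0.422). Klc2 held 118 and 79 against 112 and 130 (0.75, SE 0.406). None of the 4 light chains was called, though Klc2 was past the limits with library size alone. Klc3 and Klc4 stood at -0.12 and 0.57. Without input replicate 1 Klc1 and Klc2 were past the limits at 1.22 and 1.09, and without input replicate 2 they stood at 0.074 and 0.47.

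The kinesin-3 motors, which carry synaptic vesicle precursors, mitochondria and endosomes, were all above 0. Kif1b held 448 and 753 counts in input against 826 and 950 in RIP (1.03, SE 0.373). Kif13a, a motor of recycling endosomes, held 274 and 381 against 563 and 444 (1.08, SE 0.348). Kif1c held 125 and 77 against 200 and 137 (1.18, SE 0.424). These 3 were enriched at unadjusted p with edgeR adjusted p from 0.077 to 0.106, and in each the RIP libraries lay above the inputs. Each lost its call in fits without 1 library: Kif1b and Kif13a without input replicate 1 (0.72 and 0.88), RIP replicate 1 or RIP replicate 2, and Kif1c without input replicate 2 (0.85) or RIP replicate 1 (1.04). Kif1a, the neuronal motor of synaptic vesicle precursors, missed the limit of fold change by little. It held 1063 and 832 counts in input against 1284 and 1302 in RIP, with a log2 fold change of 0.90 (SE 0.339, edgeR adjusted p = 0.116), and ran from 0.71 without input replicate 2 to 1.11, past the limits, without input replicate 1. Kif13b lay just under the limit too, at 0.87 (SE 0.375), and Kif16b at 0.58 (SE 0.595).

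Of the 8 other kinesins tested, 3 were enriched (37.5%, beside 9.43% of all tested genes). None was depleted in edgeR or DESeq2, and 0 below 0 had an unadjusted p below 0.05 in either. Kif26a, an atypical kinesin without motor activity, held 44 and 51 counts in input against 79 and 87 in RIP (1.26, SE 0.413). Kif19a, a depolymerase that limits the length of motile cilia, held 155 and 131 against 261 and 218 (1.20, SE 0.357). Kif1bp, which binds kinesins and is not itself a motor, held 69 and 113 against 161 and 126 (1.11, SE 0.41). All 3 had RIP above input in both libraries, and edgeR adjusted p from 0.0606 to 0.11. Kif26a lost its call without RIP replicate 2, Kif19a without RIP replicate 1, and Kif1bp without input replicate 1 (0.82) or either RIP library. Kif26b had a like value of 1.23 but only 13 to 36 counts a library and an SE of 0.614. Kif2a, a depolymerase that trims microtubules in growing axon branches, held 142 and 278 counts in input against 126 and 93 in RIP (-0.48, SE 0.433). Kif21a, which restrains microtubule growth, held 163 and 504 against 248 and 275 (0.12, SE 0.499). In both the groups overlapped, and the inputs lay further apart than the RIP libraries. Without input replicate 1 and without input replicate 2, Kif2a stood at -0.87 and 0.051, and Kif21a at -0.47 and 1.11, the last past the limits.

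The 12 kinesins of cell division centred near 0, with 6 above and 6 below. Kif20b, a motor of the midbody in dividing cells, was the 1 member of the group called. The count depended on the inputs, with 0 enriched and 4 depleted without input replicate 1 and 2 enriched and 0 depleted without input replicate 2 (edgeR, with 1 above 0 in the first and 1 below 0 in the second at an unadjusted p below 0.05). It held 43 and 125 counts in input against 17 and 15 in RIP, so that both RIP libraries lay below both inputs, with a log2 fold change of -1.92 (SE 0.619, edgeR adjusted p = 0.0763). It was not past the limits without input replicate 2 (-0.99) nor without either RIP library. Kif11, the plus-end motor that holds spindle poles apart, held 64 and 365 counts in input against 196 and 204 in RIP. The RIP libraries lay between the 2 inputs, the log2 fold change was 0.37 (SE 0.656), and it ran from -0.39 without input replicate 1 to 2.07 without input replicate 2. Kif15, which can act beside Kif11 at the spindle, stood at the edge of the limits at -1.003 (SE 0.454, unadjusted p = 0.0557). The other 9 ranged from -0.58 (Kif23) to 0.56 (Kif14).

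Dynein itself was uneven between its largest and its smaller subunits. Dync1h1 encodes the heavy chain with the motor domain of cytoplasmic dynein and is annotated on chromosome 12 from 110601452 to 110666945. It held 991 and 906 counts in the inputs against 2033 and 1656 in RIP, or 29.7 and 26.4 against 80.6 and 68.8 CPM. Both RIP libraries were well above both inputs, and Dync1h1 rose 2.66-fold with a log2 fold change of 1.41 (SE 0.336, edgeR adjusted p = 0.0288). It stayed past the limits with each library left out, at 1.32 to 1.61. The other tested intermediate and light intermediate chains of cytoplasmic dynein-1 all lay below 0. Dync1i2, the intermediate chain that holds the light chains and binds dynactin, held 356 and 442 counts in input against 234 and 168 in RIP (-0.53, SE 0.35). Dync1li1 held 471 and 333 against 162 and 151, a log2 fold change of -0.91 (SE 0.359, unadjusted p = 0.0335) just inside the limit, and ran from -0.61 without input replicate 1 to -1.16, past the limit, without input replicate 2. Its paralog Dync1li2, the other light intermediate chain that grips cargo adaptors, held 359 and 564 against 301 and 301 (-0.15, SE 0.354), with overlapping groups. Dync1i1, the neuronal intermediate chain, was listed at 0 in all 4 libraries.

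Of the dynein-2 motor of cilia, the light intermediate chain was depleted and the heavy chain was not called. Dync2h1 held 28 and 157 counts in input against 100 and 133 in RIP (0.81, SE 0.674), with overlapping groups. With the replicate number as a block it passed the limits at 1.20, with an edgeR adjusted p of 0.104 (0.000296 to 0.913 over all alternatives), and it ran from 0.052 without input replicate 1 to 2.48 without input replicate 2, where it was past the limits. Dync2li1 fell 3.63-fold, from 134 and 105 counts in the inputs to 27 and 21 in RIP (log2 fold change -1.86, SE 0.443, edgeR adjusted p = 0.0289). Both RIP libraries lay below both inputs, and the call held with each library left out.

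All 10 dynein light chain transcripts had a log2 fold change below 0. Of them 8 were depleted (80%, beside 17.2% of all tested genes), 6 at an edgeR adjusted p below 0.05 (beside 9.78%). Most of the 8, and all of the 6 except Dynlrb1, were Dynlt1 copies or their pseudogene, whose reads may be shared. Dynlrb1 was the lowest of all members. It held 2610 and 1440 counts in input against 53 and 44 in RIP, or 78.3 and 42 against 2.1 and 1.83 CPM. The RIP libraries were close to each other and far below both inputs, and the transcript fell 30.5-fold with a log2 fold change of -4.93 (SE 0.468, edgeR adjusted p = 0.00101). It kept its call in all 17 alternatives. Dynlrb2, the related roadblock gene printed above with 82 differing bases, was scarce, with 43 and 45 counts in input against 6 and 9 in RIP (-2.08, SE 0.653, edgeR adjusted p = 0.0707). It was not past the limits without RIP replicate 1, at -1.69.

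The Dynlt1 copies had like values, and like changes of each copy and a sharing of reads among them cannot be told apart. Dynlt1a held 413 and 293 counts in input against 41 and 36 in RIP (-2.74, SE 0.407). Dynlt1f held 466 and 372 against 53 and 51 (-2.55, SE 0.377). Dynlt1c held 535 and 442 against 77 and 64 (-2.34, SE 0.365). In every Dynlt1 copy both RIP libraries lay below both inputs. Dynlt1b, the copy with 1 differing base, held 375 and 398 against 78 and 68 (-1.95, SE 0.357), and the pseudogene Dynlt1-ps1 held 102 and 103 against 11 and 5 (-3.21, SE 0.559). The edgeR adjusted p of the 5 copies ran from 0.00422 to 0.0106. Each kept its call with each library left out. Dynlt1a shares 13.59% of its exon bases with Tmem181a on the other strand. Dynlt3, the more distant gene of the Tctex1 family on chromosome X, was not called, with 75 and 205 counts in input against 97 and 92 in RIP (-0.10, SE 0.498), and stood at -0.64 without input replicate 1 and 0.76 without input replicate 2.

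The LC8 pair printed above had different calls. Dynll1 held 931 and 725 counts in input against 293 and 282 in RIP, and fell 2.1-fold (log2 fold change -1.07, SE 0.34, unadjusted p = 0.0125, edgeR adjusted p = 0.0729). Both RIP libraries lay below both inputs, but the value is close to the limit, and the call was lost without input replicate 1 (-0.86), RIP replicate 1 (-0.96) or RIP replicate 2 (-0.98). Dynll2 held 1998 and 1446 counts in input against 1095 and 1053 in RIP (-0.23, SE 0.345, edgeR adjusted p = 0.707), with overlapping groups. Scaled by library size alone Dynll2 was slightly positive, at 0.12. The difference between Dynll1 and Dynll2 was not tested. The annotated transcripts have like lengths, 2030 nt for Dynll1 and 2476 nt for Dynll2, whereas their FPKM values implied 4178 and 2929 nt.

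Dynactin split by transcript length: the 4 shortest of its transcripts, at 973 to 1784 nt, were depleted. The 2 longest, at 3738 and 4321 nt, were not called. The depleted share was 66.7%, beside 17.2% of all tested genes. Of all tested coding genes, 76% were depleted under 1000 nt and 32.6% from 1000 to 2000 nt. Dctn3, which encodes the small subunit of the shoulder, was the most depleted, with 410 and 177 counts in input against 48 and 29 in RIP (-2.48, SE 0.528, edgeR adjusted p = 0.0189). Dctn5 held 471 and 488 against 145 and 137 (-1.31, SE 0.334, edgeR adjusted p = 0.0366). Dctn6, its neighbour in the pointed end of the complex, held 307 and 302 against 107 and 65 (-1.37, SE 0.389, edgeR adjusted p = 0.0511). Dctn2, which encodes the p50 subunit dynamitin, held 807 and 383 against 211 and 163 (-1.22, SE 0.432, edgeR adjusted p = 0.0983). In these 4 both RIP libraries lay below both inputs. Dctn3 kept its call with each library left out, Dctn5 lost it without either RIP library, Dctn6 lost it without RIP replicate 2 (-0.998), and Dctn2 lost it without input replicate 1 (-0.56) or either RIP library. Of the longer transcripts, Dctn1 encodes p150Glued, the large subunit that binds microtubules and dynein, and held 537 and 412 counts in input against 571 and 525 in RIP (0.66, SE 0.339). Dctn4, at the pointed end, held 334 and 285 against 242 and 245 (0.11, SE 0.336). With library size alone Dctn1 was past the limits, at 1.01.

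**Figure D2:**
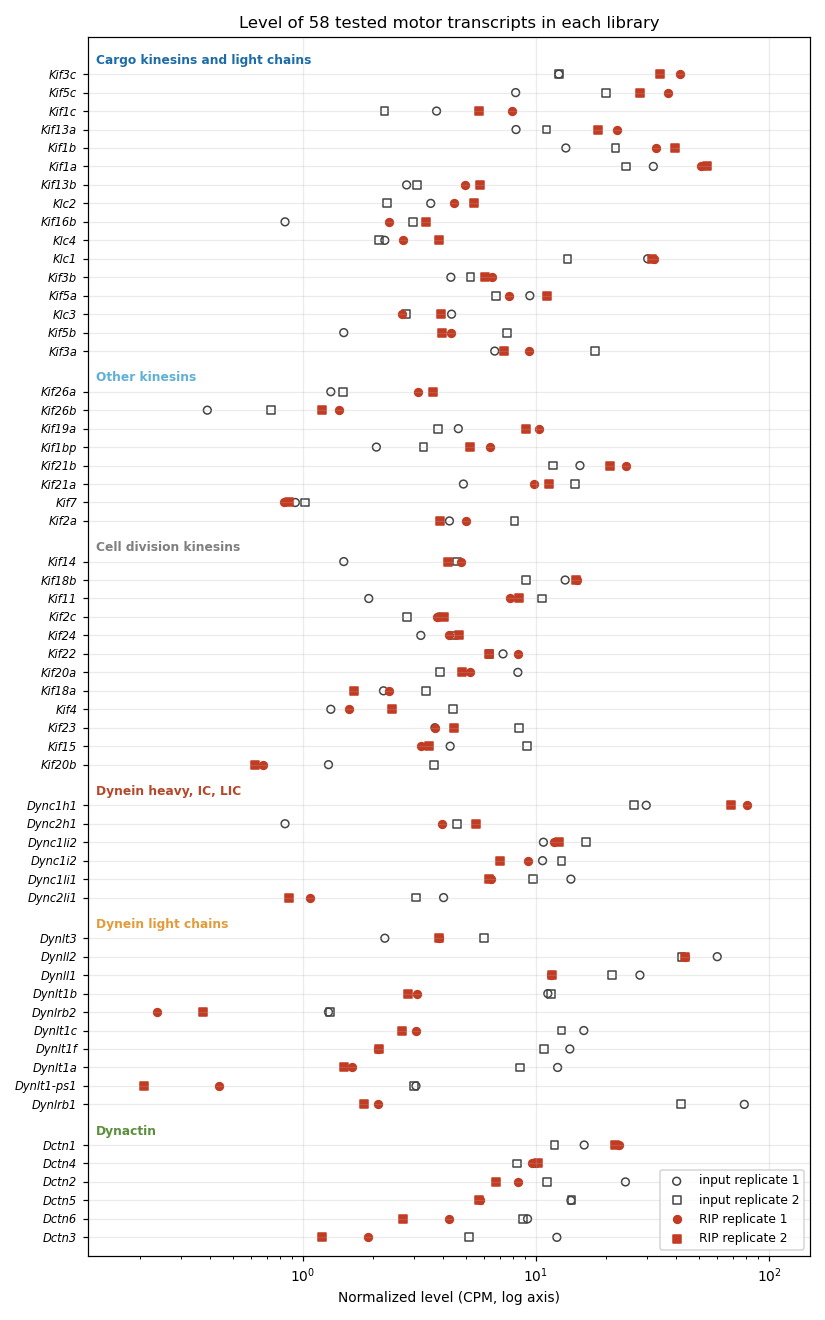
Normalized level (CPM, log x axis) of the 58 tested motor transcripts in each library, with open symbols for the 2 inputs and filled symbols for the 2 RIP libraries. Where the RIP and input groups overlapped, the 2 inputs were often far apart, as for Kif11, Kif5b and Dync2h1.

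Read per length, the 6 highest motor transcripts in the input were dynein light chains or their pseudogene, whereas the other 4 of that group lay below Dctn3, at 7 ± 3.54 FPKM (SD, n = 2). Dynlrb1 stood at 50.2 ± 17.4 FPKM (SD, n = 2), followed by Dynll2 at 15.8 ± 2.54, with Dynlt1f, Dynlt1b and Dynlt1a at 12 to 13.1. The order of Dynll2 and the Dynlt1 copies does not exceed their spread. Ranks of single Dynlt1 copies and the pseudogene also depend on the length used, and their reads may be shared. Dynlt1c held more input counts than Dynlt1a or Dynlt1f but stood at 3.25 FPKM, with an implied length of 4088 nt. The implied lengths of Dynlt1a and Dynlt1f were 795 and 860 nt. The median of the 58 tested members was 1.17 FPKM in the input. Dync1h1 stood at 1.53 ± 0.00474 FPKM in the input and 5.02 ± 1.57 in RIP, and Kif3c at 1.45 ± 0.131 and 5.36 ± 1.81. In RIP the order was thus rearranged: Dynlrb1, at 2 ± 0.568 FPKM, lay below Dync1h1 and Kif3c, and Dynll2, at 16.5 ± 3.27, was the highest of the 58.

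Replicate differences in the input bear on several of these values. The 58 members spread around the diagonal in the inputs and lay close to it in RIP. The difference between the inputs followed transcript length, with a Pearson correlation of 0.422 across the members and 0.256 across all tested genes, so that input replicate 1 held relatively fewer counts of long transcripts.

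**Figure D3:**
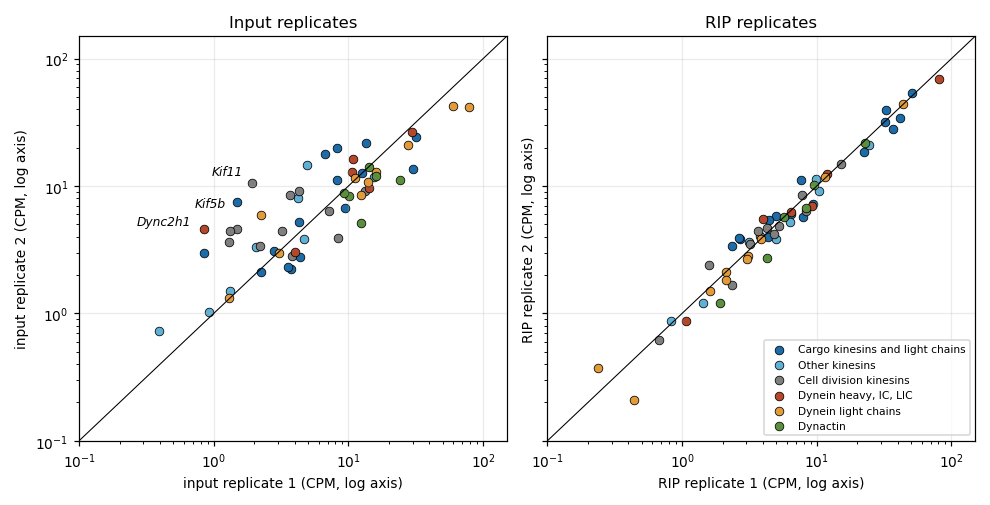
Level of the 58 tested motor transcripts in replicate 2 (y axis) against replicate 1 (x axis), in CPM on log axes, for input (left) and RIP (right), with colours for the role groups and a line at equality. The SD of the log2 difference between replicates was 0.923 in the inputs and 0.319 in RIP.

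Length was the feature, not used in choosing the members, that went furthest with the fold change. Across the 57 members with a coding transcript the log2 fold change correlated with the log2 length of the longest coding transcript with a Pearson r of 0.732 and a Spearman rho of 0.718. Genes share libraries and are not independent replicates, so these are descriptions. The same correlation over all 11953 tested protein-coding genes was 0.502 and 0.487, so that the trend was not limited to motors. For GC content the members gave 0.191 and 0.305, and for GGACT per kb 0.24 and 0.258. Under 1000 nt, 5 of 5 members were depleted, where 76% of all tested coding genes of that length were. From 1000 to 2000 nt, 4 of 5 were depleted, against 32.6%. From 2000 to 4000 nt, 2 of 20 were enriched and 3 depleted, against 7.59% and 10.1%. From 4000 to 8000 nt, 5 of 19 were enriched and 1 depleted, against 16.8% and 3.85%, and at 8000 nt or more 2 of 8 were enriched, against 24.1%.

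**Figure D4:**
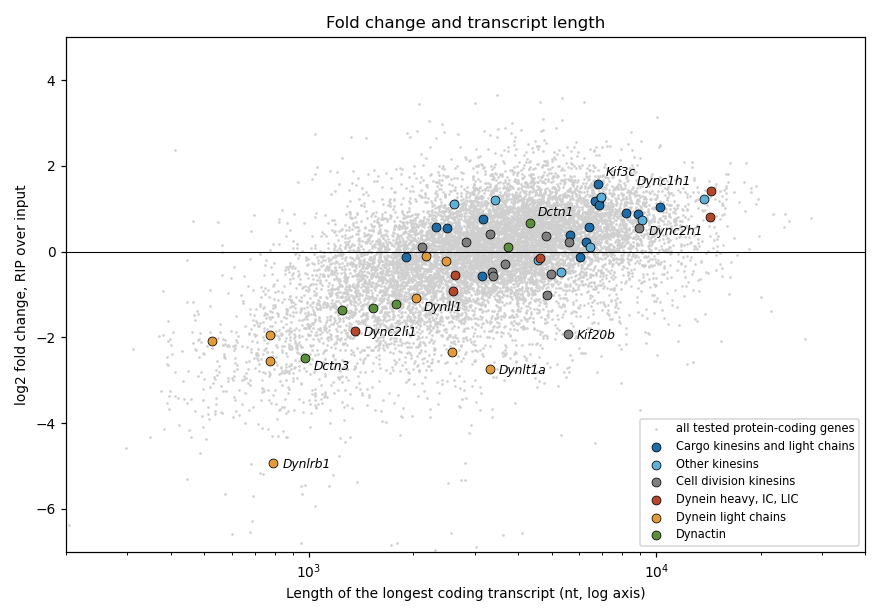
log2 fold change of RIP over input (y axis) against the length of the longest coding transcript (nt, log x axis) for all tested protein-coding genes (grey) and the motor transcripts (coloured by role). Members rise with length, as the other genes do, and Dynlrb1 (-4.93), Dynlt1a (-2.74) and Kif20b (-1.92) lie low for their length. Genes beyond the limits of the y axis are not drawn.

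When smooth trends on length and GC were fitted over all genes and taken out, most calls were lost. Of the 58 members, 1 was enriched and 5 were depleted with annotated lengths, where 8.77% and 9.15% of all tested genes were in the same fit. The enriched member was Kif1bp, at 1.27, and Kif3c and Dync1h1 fell inside the limits, at 0.97 and 0.69. With annotated lengths the median of the dynein light chains moved from -2.21 to -0.51 and that of dynactin from -1.27 to -0.31. Dynlrb1 remained far below 0 at -3.30, as did Dynlt1c at -2.12 and Kif20b at -1.85. Dynlt1a kept its call at -2.77 on an annotated length of 3321 nt. Its FPKM values implied 795 nt, however, and with lengths implied by FPKM, an alternative added after seeing the data, it stood at -0.70 and lost the call. With these implied lengths, where 10.2% of all tested genes were enriched and 10.6% depleted, 1 member was enriched, Kif3c at 1.25, and 5 were depleted, among them Dynlrb1 at -3.56, Dynlt1c at -2.24, Kif20b at -1.74 and Dctn2 at -1.46. Kif15 became depleted in both, at -1.06 and -1.13. With implied lengths the medians were -0.57 for the dynein light chains and -0.86 for dynactin. In that fit 3 of 6 dynactin transcripts lay below 0 at an edgeR unadjusted p below 0.05. Dynlrb2 and Dynlt1b had values above 0 with implied lengths, at 0.31 and 0.04. Dynlrb1, Dynlt1c and Kif20b were thus past the limits with either set of lengths, and Kif3c and Kif1bp with 1 set each. For Dynlt1c the annotated and implied lengths were 2589 and 4088 nt. Dynlt1f, with the same coding sequence, had 771 and 860 nt and lost its call with either set. The value of Dynlt1c in these fits therefore does not stand for the copies as a group.

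**Figure D5:**
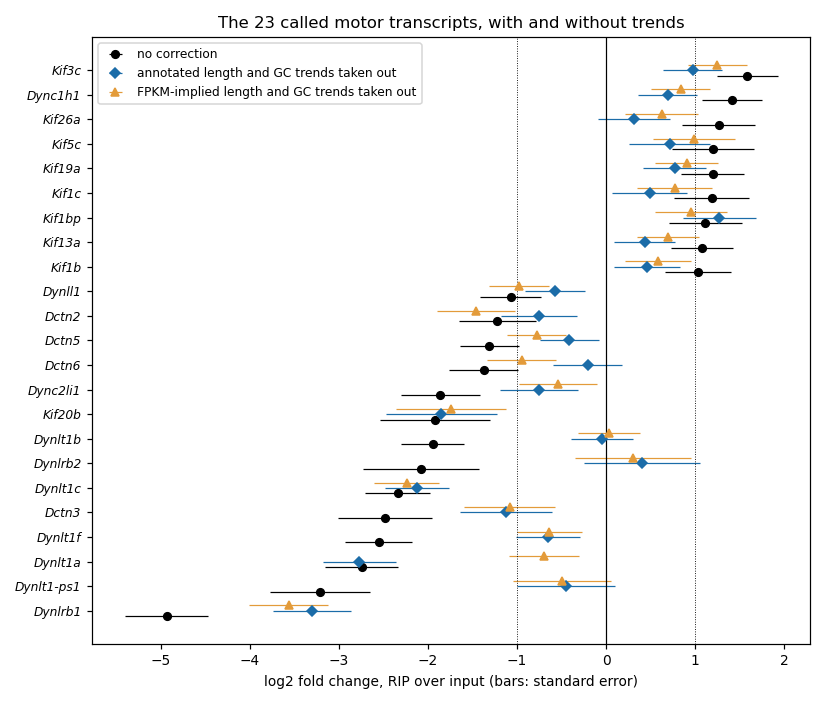
log2 fold change of RIP over input (x axis, bars for 1 standard error) of the 23 called motor transcripts (rows) without correction (black circles), with trends on annotated length and GC taken out (blue diamonds) and with trends on FPKM-implied length and GC taken out (orange triangles). Dynlrb1 moves from -4.93 to -3.30 and -3.56, Dynlt1c stays near -2, and most others move inside the dotted limits at -1 and 1.

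Partners of the motors that the symbols do not reach gave a mixed picture. Of 11 other subunits and kinesins, 1 was enriched (9.09%, beside 9.43% of all tested genes) and 3 depleted (27.3%, beside 17.2%). Capzb, the actin capping protein subunit found at the barbed end of the dynactin filament, fell 3.69-fold, from 960 and 522 input counts to 142 and 151 in RIP (log2 fold change -1.89, SE 0.407, edgeR adjusted p = 0.0203). Actr1a, the actin-related protein that forms that filament, moved the other way, with 893 and 508 input and 1142 and 1066 RIP counts (1.11, SE 0.386, edgeR adjusted p = 0.0953). Actr1a was singled out after its values were seen. Of 22 adaptors that link kinesins to cargo, 4 were enriched (18.2%) and 2 depleted (9.09%), with a median of 0.32. With length and GC trends taken out 1 was enriched and 1 depleted at a median of -0.056, and with library size alone 6 were enriched at a median of 0.67. Of all tested genes, 8.77% were enriched and 9.15% depleted in that trend fit, and 17.3% and 12.7% with library size alone. Madd, which links Rab3 vesicles to Kif1a and Kif1b, rose 3.98-fold (321 and 239 input and 841 and 787 RIP counts, log2 fold change 1.99, SE 0.354, edgeR adjusted p = 0.00927). Ppfia3, a liprin of the presynaptic active zone, rose 2.77-fold (1.47, SE 0.4, edgeR adjusted p = 0.045). Of 19 tested activators and regulators of dynein, 4 were enriched (21.1%) and 1 depleted (5.26%), with a median of 0.34. With length and GC trends taken out 1 was enriched and 1 depleted, and with library size alone 7 and 1, beside the shares of all tested genes given for the adaptors. Among them Rab11fip3, an adaptor of recycling endosomes, rose 2.85-fold, from 167 and 107 to 304 and 268 counts (1.51, SE 0.383, edgeR adjusted p = 0.0354). The adaptors and the activators had median lengths of 4914 and 5517 nt, near the 6349.5 nt of the cargo kinesins and far from the 1409 nt of the light chains. Axonemal dyneins, the motors of beating cilia, were scarce, with 7 of 18 tested. Of the 7, 1 was enriched and 1 depleted (14.3% each, beside 9.43% and 17.2% of all tested genes). In DESeq2 the numbers were 0 and 1.

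Marker lists were read in the same fit to check the tissue and its cells. Retinal progenitor markers summed to 768 to 1143 CPM in the inputs and photoreceptor precursor markers to 132 to 155 CPM. Lens crystallins summed to at most 0.333 CPM in any library, with 11 of 14 at 0. Markers of blood, vessels, microglia and pigment epithelium summed to at most 8.98 CPM. Of these last, 2 of 6 tested were enriched in edgeR (33.3%, beside 9.43% of all tested genes) and 0 of 10 in DESeq2 (0 at an unadjusted p below 0.05). Because the libraries are bulk, a marker level in input does not tell fewer cells of a type from less RNA per cell. The changes below compare RIP with input from the same replicates. Markers of dividing cells summed to 282 and 342 CPM in the inputs against 166 and 167 in RIP, with 4 of 17 depleted (23.5%, beside 17.2% of all tested genes; 6 in DESeq2), a median of -0.48 and 4 above 0, up to 0.12. Of the lower ones, Mki67 stood at -2.41 (SE 0.671), Birc5 at -1.64 (SE 0.357) and Ube2c at -3.42 (SE 0.463). The inputs of Mki67 lay far apart, at 453 and 2388 counts against 177 and 207 in RIP. Its log2 ratios were -0.95 in replicate 1 and -3.01 in replicate 2. Retinal ganglion cell markers summed to 115 to 118 CPM in the inputs against 48.5 to 51.1 in RIP, with 5 of 14 depleted (35.7%, beside 17.2% of all tested genes), among them Sncg, Nefm, Stmn2 and Gap43 at -3.43 to -1.59. The list was uneven, with a median of -0.61 and 2 of the 14 above 0, up to 0.59. Progenitor markers had 3 of 12 depleted (25%, beside 17.2% of all tested genes), namely Six3, Sox2 and Hes1 at -2.18 to -1.41. Photoreceptor precursor markers had 0 of 7 called in edgeR and 0 in DESeq2, with 2 above 0 at an unadjusted p below 0.05 in each. The part of these shifts in the values of the division kinesins and the light chains was not tested.

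The 11 members that were not tested had few or no counts. Kif12, Kif28, Kif2b, Kif16bos, Kif22-ps, Kif4-ps and the neuronal Dync1i1 were listed at 0 in all 4 libraries, which at this depth allows up to 0.0874 to 0.125 CPM per library, a floor of 3 counts that covers counting error only. Kif17, the homodimeric kinesin-2 of cilia and dendrites, held 0 and 7 counts in input against 3 and 0 in RIP. Kif27, Kif6 and Kif9 held at most 12 counts in any library. For these no difference was detectable at this depth.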

How the data were processed

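Anti-YTHDF2 RIP and input RNA were sequenced in 2 replicates each. Libraries were made with a stranded TruSeq kit, and the submitters' processing notes name STAR 2.5, HTSeq and GRCm38 without roles or settings, so whether the counting used strand is not given in the sources used here. The authors deposited whole-number counts per gene and a second table of FPKM, in which library size and gene length are divided out. No per-sample column was left unused (0). The members, role groups, partner lists and marker lists were chosen with earlier results of these data known. Full values are given for members past the limits and, whatever their values, for the main motor subunits, the other members by range and count, and other listed genes where they passed the limits with an adjusted p below 0.05.

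Tests on counts used edgeR 4.0.16 under R 4.3.3 (filterByExpr with a minimum count of 10 and total of 15, TMM, glmQLFit, glmQLFTest, Benjamini-Hochberg adjustment over 13632 genes). SE is the log2 fold change over the square root of F. The script was tested on simulated data. The series design pairs the input and RIP library of each replicate. The differences between replicates in input and in RIP had a Pearson correlation of -0.0282 over all tested genes and 0.213 over the 58 members. The fit left the pairing out, and a replicate block was an alternative. Other alternatives were DESeq2 1.42.0, other scalings and filters, limma 3.58.1 on log2(FPKM + 0.1) and log2(FPKM + 1), length and GC trends (mgcv 1.9.3) and leaving out each library. Lengths, GC and sequences came from GENCODE M21 on GRCm38, which held 52403 of 52550 identifiers. The replicates are given as biological in the study's methods.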

Additional observations from a re-analysis of the deposited data

How the results depend on the processing

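Enriched members numbered 9, and 15 with library size alone, 1 with length and GC trends taken out, 1 with these and the replicate block, 1 and 2 with FPKM-implied lengths in the same fits (chosen after seeing the data), 3 with limma on log2(FPKM + 1), and 3 to 15 with 1 library left out. Enriched members with an adjusted p below 0.05 numbered 2, and 4 with DESeq2, 4 with library size alone, 0 in all 4 fits with trends taken out, and 0 to 14 with 1 library left out. Depleted members numbered 14, and 5, 6, 5 and 6 in the 4 trend fits, 7 with limma on log2(FPKM + 1), and 9 to 16 with 1 library left out. Depleted members with an adjusted p below 0.05 numbered 9, and 3, 4, 2 and 3 in the 4 trend fits, and 1 to 15 with 1 library left out. Enriched members made up 39.1% of the called members, and 60% with library size alone. Of all tested genes, 9.43% were enriched and 17.2% depleted, and 17.3% and 12.7% with library size alone, 8.77% to 10.6% and 9.15% to 11.3% in the 4 trend fits, 2.66% and 7.28% with log2(FPKM + 1), and 4.52% to 15% and 10.5% to 18.7% with 1 library left out. That scaling moved the median of all tested genes from -0.05 to 0.27, so member directions near 0 are relative to it. The members' median minus that of all tested genes was 0.06, and -0.12, -0.10, -0.12 and -0.0066 in the 4 trend fits and -0.041 to 0.14 with 1 library left out. It was 0.15 with DESeq2 and 0.19 with log2(FPKM + 0.1), beside a replicate SD of 0.173.

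Of the members whose sign turned, Dynlrb2 and Dynlt1b were called. With trends taken out (annotated lengths, the same with the block, implied lengths, the same with the block) Dynlrb2 stood at 0.40, 0.40, 0.31 and 0.30, Dynlt3 at 0.89, 0.91, 0.88 and 0.91, and Kif5a at -0.44, -0.49, -0.16 and -0.20. Kif21a stood at -0.33, -0.19 and, with implied lengths, -0.048, Dynlt1b at 0.036 and 0.042, Dctn4 at -0.17 and -0.23, and Dynll2 at 0.11 and 0.12 with implied lengths, and Kif5b at 0.053 and 0.22 with the block. With library size alone, log2(FPKM + 0.1) and log2(FPKM + 1), Dync1li2 stood at 0.16, 0.12 and 0.078, Dynll2 at 0.12, 0.06 and 0.057, Dynlt3 at 0.20, 0.28 and 0.13, and Kif5b at 0.17, 0.38 and 0.075. The replicate block alone gave Dynlt3 0.053 and Kif5b 0.27, gained the call of Dync2h1, gave 11 depleted members with an adjusted p below 0.05 in place of 9, and changed no other call. With 1 library left out, values turned for Dctn4 (-0.026 to 0.26), Dync1li2 (-0.43 to 0.18), Dynll2 (-0.47 to 0.049), Dynlt3 (-0.64 to 0.76), Kif11 (-0.39 to 2.07), Kif21a (-0.47 to 1.11), Kif2a (-0.87 to 0.051), Kif3a (-1.12 to 0.31), Kif5a (-0.011 to 0.57) and Kif5b (-0.86 to 1.45). A group left with 1 library was assumed to vary like the other. Of the values of the 40 named members in the alternatives, 503 kept direction and side of the limits, 115 lost the call, 13 gained it and 47 turned. Dynlrb1 and Dynlt1c kept their calls in all. The cause of the lost, gained and turned values was not tested.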
